A study of Mus musculus with 12 samples.

Results

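The genes for the proteins of the mitochondrial ribosome were followed in mouse skin keratinocytes that had been separated by the surface protein CD34. Members were the genes whose symbol in the platform annotation is Mrpl or Mrps followed by a digit. There were 76 of them among 18193 genes, 47 with an Mrpl symbol (large subunit) and 29 with an Mrps symbol (small subunit). Each gene was read from 1 probe set, chosen by its measured level as the highest mean over the 12 arrays among probe sets tied to exactly 1 gene. Levels are therefore a description only, while the difference between the fractions played no part in the choice. Mrpl30 and Mrpl53 stood only on probe sets tied to several genes and were not analysed here.

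The cells came from the skin of mice whose strain is labelled C57 DBA, with no age, allele or treatment named, and were sorted with magnetic beads (MACS) into CD34+ and CD34- keratinocytes. The series title names quiescence of adult epidermal stem cells as its subject, and CD34 marks cells of the bulge of mouse hair follicles, where slowly cycling stem cells reside. There were 3 isolations, each from a pool of at least 6 mice, and the RNA of each fraction went onto 2 Affymetrix mouse arrays, which gave 6 CD34+ and 6 CD34- arrays. Since the labels leave it unsaid which arrays carry the same RNA, all 12 were entered as separate samples, and p-values come out too small to the degree that arrays of 1 RNA resemble each other.

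Mitochondrial ribosomes sit in the mitochondrial matrix and translate the few messages of the mitochondrial genome, all of which encode subunits of the respiratory chain and ATP synthase. Their RNA is made inside the organelle, whereas every protein is encoded in the nucleus, made on cytosolic ribosomes and imported. Part of these proteins descend from the bacterial ribosome, and the rest were added in the course of mitochondrial evolution. The small subunit decodes the message, and the large subunit joins the amino acids and releases the chain through a tunnel at the inner membrane.

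The stretch before the transcription start is shown for 4 members whose expression differed between the fractions and whose window holds a motif known from promoters of mitochondrial genes. Each run is the 250 bases before the start from RefSeq (GRCm38.p6), 5′ to 3′ on the gene's strand, with motif matches in capitals. Mrpl9 (chr3:94443086-94443335, plus strand) and Mrps22 (chr9:98601680-98601929, minus strand) were lower in CD34+ cells, whereas Mrpl44 (chr1:79775768-79776017, plus strand) and Mrpl52 (chr14:54426659-54426908, plus strand) were higher on the probe sets used.
Mrpl9: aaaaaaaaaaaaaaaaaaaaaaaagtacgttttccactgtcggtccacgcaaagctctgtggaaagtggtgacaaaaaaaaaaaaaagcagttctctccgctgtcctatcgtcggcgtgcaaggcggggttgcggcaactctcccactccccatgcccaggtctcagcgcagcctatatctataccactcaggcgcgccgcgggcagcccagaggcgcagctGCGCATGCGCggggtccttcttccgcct
Mrps22: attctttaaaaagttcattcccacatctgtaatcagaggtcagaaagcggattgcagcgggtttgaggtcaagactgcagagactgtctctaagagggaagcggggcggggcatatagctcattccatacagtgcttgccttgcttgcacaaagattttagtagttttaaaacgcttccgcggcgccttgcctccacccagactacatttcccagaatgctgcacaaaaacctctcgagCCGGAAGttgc
Mrpl44: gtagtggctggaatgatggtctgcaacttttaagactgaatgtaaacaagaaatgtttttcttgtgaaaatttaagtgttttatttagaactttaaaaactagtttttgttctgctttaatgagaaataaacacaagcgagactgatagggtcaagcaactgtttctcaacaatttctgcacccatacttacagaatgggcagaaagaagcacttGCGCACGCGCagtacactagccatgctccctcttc
Mrpl52: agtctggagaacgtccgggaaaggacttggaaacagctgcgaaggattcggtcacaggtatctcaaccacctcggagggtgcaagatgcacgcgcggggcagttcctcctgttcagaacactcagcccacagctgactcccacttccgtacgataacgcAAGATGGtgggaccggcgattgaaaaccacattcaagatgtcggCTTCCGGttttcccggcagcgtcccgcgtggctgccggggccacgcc
The capitals mark an NRF1 motif in Mrpl9 and in Mrpl44, an ETS motif in Mrps22, and a YY1 and an ETS motif in Mrpl52.

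Promoter windows, from 250 bases before to 50 after the start, were given for 67 of the 76 members in 73 windows, and for 32851 windows in all. The 9 members without one were Mrpl4, Mrpl13, Mrpl15, Mrpl19, Mrpl38, Mrpl54, Mrps28, Mrps34 and Mrps35. Matches were sought on both strands. The ETS motif CCGGAAG, the core bound by GABP and related factors, stood in 25 of 73 member windows (34.2%), against 8.86% of all windows and 18.6% of the windows of genes at or above the median level. The NRF1 motif, GCGCA and GCGC with any 1 base between, stood in 12 member windows (16.4%), against 4.6% and 10.8%. The YY1 motif AAGATGG stood in 13 (17.8%), against 6.34% and 7.46%. The E-box CACGTG, a site of MYC-type factors, stood in 7 (9.59%), against 7.15% and 10.4%. Matches of different motifs were allowed to overlap.

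Matches stood in windows of members that differed and of members that did not. Of the windows of lower members, 33.3% held the ETS motif and 14.8% the NRF1 motif. Of the windows of members not past the threshold, 34.9% and 16.3% did. The YY1 motif stood in 14.8% and 18.6% of these windows. The E-box stood in 18.5% of the windows of lower members and 4.65% of those not past the threshold, from 3 of 25 and 2 of 39 genes, with 3 overlapping windows of Mrpl2 among the former. The NRF1 motif stood 28 bases before the start in Mrpl9, which was lower in CD34+ cells. It stood 35 bases before the start in Mrpl44, which was higher on the probe set used and lower on 2 others. Of the factors themselves, named after their values were seen, Nrf1 differed by -0.48 ± 0.21 on the log2 scale (SE, adjusted p = 0.0972) and Gabpa by -0.40 ± 0.17 (adjusted p = 0.0978), so neither passed the threshold. These matches describe letters and not bound sites.

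Values are log2 RMA signals, so that a difference of 1 is 2-fold, and differences are CD34+ minus CD34-. Cd34 itself was 6.92 ± 0.23 higher (limma, adjusted p = 9.8e-10) in the CD34+ arrays. The arrays differed in RNA measures along with the fractions. The 3′ signal of the Actb controls exceeded their 5′ signal, a gap that grows as RNA or labelled strands shorten, by 3.95 to 5.65 in CD34+ and 1.82 to 3.24 in CD34- arrays (two-sided exact permutation test over arrays, p = 0.00216), and the gap of Gapdh was 3.66 to 4.63 against 3.10 to 3.57 (p = 0.00216). The standard deviation over probe sets was 1.92 to 2.26 in CD34+ and 2.19 to 2.32 in CD34- arrays. The mean signal of the poly-A spikes was 8.45 to 12.2 against 7.74 to 8.48. Markers of other cells moved too: all 8 measured T cell markers were lower in CD34+ cells (mean marker level 5.24 to 6.34 against 7.08 to 8.16), as were 5 of 10 Langerhans and myeloid markers (5.69 to 5.86 against 6.08 to 6.77), and 4 of 9 dermal fibroblast markers were higher (5.61 to 7.11 against 4.67 to 5.65). Keratinocyte markers were strong in every array (mean level 11.4 to 12.4), and 5 of 11, Krt5 and Krt14 among them, were lower in CD34+ cells. No endothelial, mast cell, skeletal muscle or adipocyte marker passed the threshold, and Tek, Emcn, Mcpt4, Fcer1a, Tnnt3, Adipoq, Myh11 and Cdh19 had means below the highest reading of the Trpn controls, which mark the low end of the scale (2.31 to 2.95). Melanocyte markers were split, with 1 of 8 lower and 2 higher, and 1 of 6 smooth muscle markers, Myh11 at that low end (3.06 against 2.77), was higher and 1 of 3 Schwann cell markers lower. The part of these measures in the results that follow was not tested. In bulk samples, fewer cells of a type and less RNA per cell cannot be told apart.

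More members of both subunits were lower than higher in CD34+ cells. Of the 76 genes, 30 were lower and 3 higher at an adjusted p under 0.05 (limma, Benjamini-Hochberg over all 18193 genes), and 43 did not pass. Of all genes, 18.1% were lower, 7.99% were higher and 26.1% passed in either direction. The median member differed by -0.32, against 0.04 for all genes. Most members were well measured, however: 72 of 76 had a mean at or above the median level of all genes (5.36), and among such genes 31.1% were lower, 7.01% higher, and the median difference was -0.26. The members' share of lower genes (39.5%) was thus nearer to that of genes at or above the median level than to that of all genes.

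The split between lower and higher members depended on how the arrays were scaled. Lower genes made up 90.9% of the members that passed in the deposited values, 94.4% after centring each array on its median and 62.1% after a further quantile normalization. Over all genes that passed, the shares were 69.4%, 80.8% and 54.3%, and so moved in the same order. After that quantile step 18 members were lower and 11 higher, where 13.7% of all genes were lower and 11.5% higher. Of genes at or above the median level 20.8% were lower and 17.5% higher, against 23.7% and 14.5% of members. The median of the members was then -0.10, against -0.02 for genes at or above the median level.

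In the large subunit 16 of 47 genes were lower (34.04%) and 3 higher (6.38%), with a median difference of -0.32. In the small subunit 14 of 29 were lower (48.3%) and none higher, with a median of -0.30. The medians lay 0.02 apart and no test of one subunit against the other was made. Within each array the median deviation of the large subunit minus that of the small ran from -0.06 to 0.11 in CD34+ and from -0.05 to 0.09 in CD34- arrays, so the subunits moved nearly alike from array to array.

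**Figure D1:**
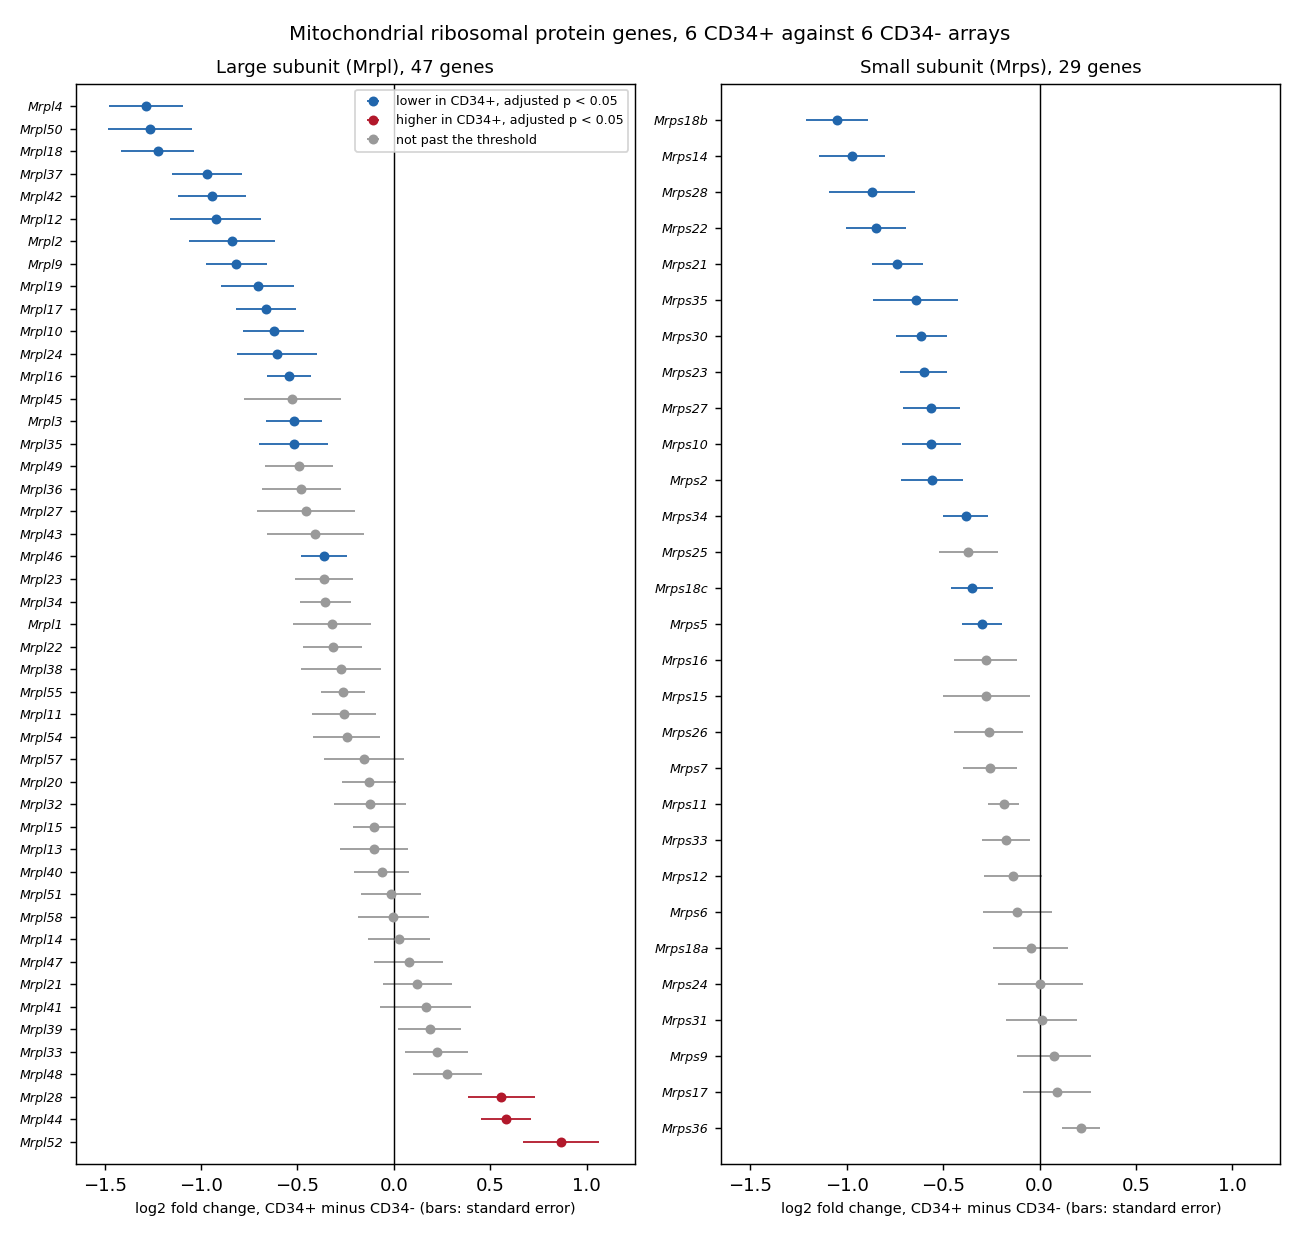
Log2 fold change (x axis, CD34+ minus CD34-, with limma's standard error) of each member (y axis), large subunit on the left and small subunit on the right, 6 arrays per fraction. Blue points were lower and red points higher at an adjusted p under 0.05; 16 large and 14 small subunit genes are blue, and Mrpl52, Mrpl44 and Mrpl28 are red.

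The symbols do not sort the proteins quite as the known structures do. Mrps30 and Mrps18a are part of the large subunit in the structures, and Mrps36 has since been assigned to the oxoglutarate dehydrogenase complex. With these 3 placed so, 17 of 49 large subunit genes were lower and 3 higher (median -0.32), and 13 of 26 small subunit genes were lower and 0 higher (median -0.32). Members with a bacterial relative were lower in 20 of 47 cases and higher in 1, with a median of -0.32. Members found only in mitochondrial ribosomes were lower in 10 of 26 cases and higher in 2, with a median of -0.37. Within the latter, with Mrps30 counted as small, 6 of 10 small subunit genes and 4 of 16 large subunit genes were lower. Among members with a bacterial relative the share of lower genes was nearly the same in both subunits. Of all genes 18.1% were lower, and of those at or above the median level 31.1%.

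In the large subunit the most negative difference was that of Mrpl4, a protein with a bacterial relative. Mrpl4 ran from 6.87 to 7.99 in CD34+ arrays (median 7.13) and from 8.35 to 8.99 in CD34- arrays (median 8.49). No array of one fraction reached the other, and the difference was -1.28 ± 0.19 (adjusted p = 0.000338). Mrpl50, found only in mitochondrial ribosomes, ran from 4.64 to 6.04 (median 5.28) against 6.36 to 7.15 (median 6.56). The fractions again did not overlap, and the difference was -1.26 ± 0.22 (adjusted p = 0.000911), or 2.40-fold lower. Mrpl18, the relative of the bacterial protein that binds 5S RNA, ran from 5.89 to 7.10 (median 6.2) against 7.07 to 7.83 (median 7.48). Only CD34+ array 4 reached into the CD34- range, and the difference was -1.22 ± 0.19 (adjusted p = 0.000407).

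Another 3 large subunit genes differed by nearly as much. Mrpl37, also found only in mitochondria, ran from 4.18 to 5.53 against 5.67 to 6.13, with a difference of -0.97 ± 0.18 (adjusted p = 0.00157). Mrpl42 ran from 6.68 to 7.92 against 8.18 to 8.60, with a difference of -0.94 ± 0.18 (adjusted p = 0.00148). Neither gene's arrays overlapped between the fractions. Mrpl12, the stalk protein that in bacteria recruits translation factors, ran from 5.62 to 7.27 (median 6.2) against 6.77 to 7.64 (median 7.31). Its CD34+ array 4 lay above 3 of the CD34- arrays, and the difference was -0.92 ± 0.24 (adjusted p = 0.0109). Without CD34+ arrays 1, 3 and 5 it was -0.55 (adjusted p = 0.135).

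The other 10 large subunit genes that were lower were Mrpl2, Mrpl9, Mrpl19, Mrpl17, Mrpl10, Mrpl24, Mrpl16, Mrpl3, Mrpl35 and Mrpl46, with differences from -0.84 to -0.36. Mrpl24 and Mrpl35 no longer passed when any 1 of 9 arrays was left out, and Mrpl46 without any 1 of 7. Mrpl10 anchors the stalk to which Mrpl12 belongs, and Mrpl2 and Mrpl3 are relatives of bacterial proteins near the peptidyl transferase centre. Mrpl2 ran from 6.26 to 7.75 against 7.87 to 8.14, and Mrpl9 from 6.71 to 7.71 against 7.93 to 8.44. For these 2 the fractions did not overlap, and for the remaining 8 they did. In all, 8 of the 76 members, 6 large and 2 small subunit genes, lay lower in CD34+ cells with no overlap of arrays. Higher with no overlap lay 1 large subunit gene. Among all genes 8.77% were lower and 4.17% higher with no overlap. Lower members without overlap were thus not much more frequent than such genes in general.

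In the small subunit Mrps18b, 1 of the relatives of bacterial S18, differed most. It ran from 6.11 to 7.10 in CD34+ arrays (median 6.85) and from 7.52 to 8.03 in CD34- arrays (median 7.80). The fractions did not overlap, and the difference was -1.05 ± 0.16 (adjusted p = 0.00037), or 2.07-fold lower. Mrps14, the relative of bacterial S14, ran from 9.08 to 9.86 (median 9.41) against 9.83 to 10.83 (median 10.39). Only CD34+ array 4 and CD34- array 6 crossed, and the difference was -0.97 ± 0.17 (adjusted p = 0.001). A second probe set of Mrps14, with a mean of 7.16, differed by -0.25 ± 0.14 and did not pass (adjusted p = 0.204). The mean over its 3 probe sets differed by -0.43 (adjusted p = 0.00888).

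Mrps28 ran from 5.60 to 6.94 against 6.80 to 7.44, with a difference of -0.87 ± 0.23 (adjusted p = 0.0118). Without CD34+ arrays 1, 3 and 5 it was -0.39 (adjusted p = 0.111). Mrps22, a mitochondria-specific protein mutated in an inherited respiratory chain disease, ran from 6.04 to 6.73 (median 6.2) against 6.71 to 7.45 (median 7.14). Its difference was -0.85 ± 0.16 (adjusted p = 0.00139), with an overlap only between CD34+ array 4 and CD34- array 6. Mrps21 ran from 6.87 to 7.17 against 7.27 to 8.06 with no overlap, and its difference was -0.74 ± 0.13 (adjusted p = 0.00111). It did not pass after quantile normalization (-0.44, adjusted p = 0.0692) or with the mean over its probe sets (-0.23, adjusted p = 0.054). Mrps35 ran from 5.12 to 6.53 against 6.00 to 6.71, and its difference of -0.64 ± 0.22 passed narrowly (adjusted p = 0.0466). It no longer passed when any 1 of 9 arrays was left out, or without CD34+ arrays 1, 3 and 5 (-0.28, adjusted p = 0.468).

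The remaining 8 lower small subunit genes, Mrps30, Mrps23, Mrps27, Mrps10, Mrps2, Mrps34, Mrps18c and Mrps5, differed by -0.61 to -0.30. Mrps5 no longer passed when any 1 of 9 arrays was left out, Mrps34 without any 1 of 6 and Mrps18c without any 1 of 4. Mrps27 is a pentatricopeptide repeat protein, a class that binds RNA, and Mrps2, Mrps5 and Mrps10 have bacterial relatives of the same number. Mrps23 ran from 6.22 to 6.76 against 6.71 to 7.24, with only CD34+ array 6 inside the CD34- range. The small subunit count fell from 14 to 9 without CD34- array 4, and leaving out any other array gave 10 to 15. Over all genes the lower count fell from 3296 to 2643 without CD34- array 4. Leaving out any other array gave 2627 to 3889.

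Only 3 members, all of the large subunit, were higher in CD34+ cells. Mrpl52, a mitochondria-specific protein, ran from 9.44 to 10.55 in CD34+ arrays (median 10.20) and from 8.99 to 9.72 in CD34- arrays (median 9.13). Only CD34+ array 5 lay within the CD34- range, and the gene was higher by 0.87 ± 0.20 (adjusted p = 0.00539), or 1.82-fold. Mrpl44, which carries a ribonuclease III fold and is mutated in an inherited heart disease, ran from 9.02 to 9.61 (median 9.37) against 8.38 to 8.95 (median 8.85). Its arrays did not overlap, and it was higher by 0.58 ± 0.13 (adjusted p = 0.0046). Mrpl28, the relative of bacterial L28, ran from 7.86 to 8.85 (median 8.64) against 7.70 to 8.13 (median 7.91). Its CD34+ arrays 3 and 5 lay within the CD34- range, and the difference was 0.56 ± 0.17 (adjusted p = 0.0292). Mrpl28 no longer passed after median centring (0.46, adjusted p = 0.108) or without any 1 of 7 arrays. It also did not pass with the mean over its probe sets (0.34, adjusted p = 0.0664).

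**Figure D2:**
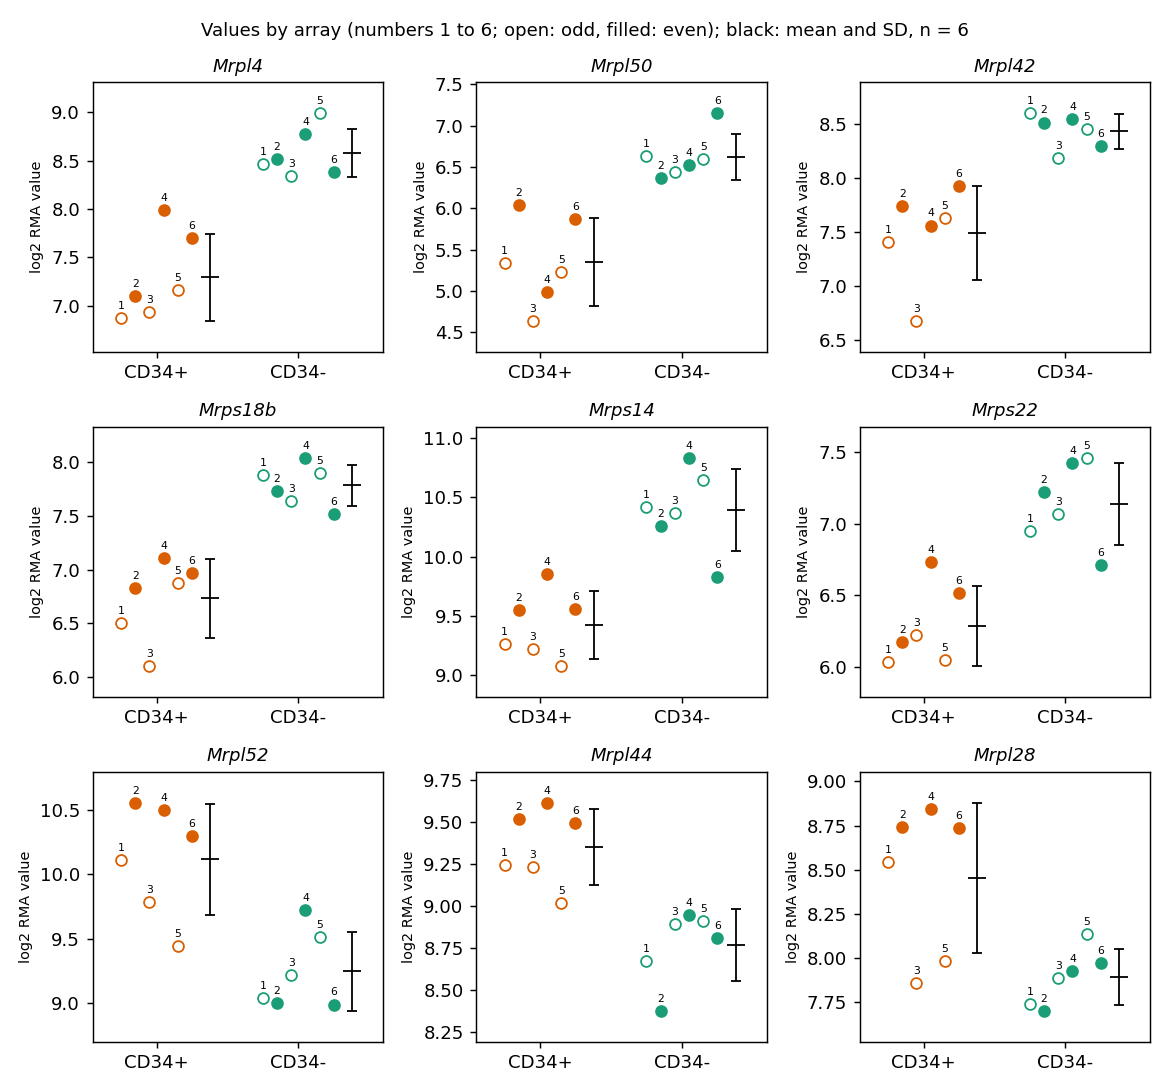
Log2 RMA values (y axis, a separate scale for each gene) of 9 members in the 6 CD34+ and 6 CD34- arrays; numbers name the array, open circles are odd-numbered and filled circles even-numbered arrays, and black marks give mean and SD. Mrpl4, Mrpl50, Mrpl42 and Mrps18b have no overlap below the CD34- arrays, Mrpl44 has none above them, and CD34+ arrays 3 and 5 are low in Mrpl52 and Mrpl28.

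The members that did not pass spread from -0.53 to 0.28. Mrpl45, which tethers the ribosome to the inner membrane, ran from 4.64 to 6.14 against 5.31 to 6.28, with a difference of -0.53 ± 0.25 (adjusted p = 0.137). Mrpl49 differed by -0.49 ± 0.18 (adjusted p = 0.0563), and passed after median centring (adjusted p = 0.0415). In the small subunit Mrps25 differed by -0.37 ± 0.15 (adjusted p = 0.087) and Mrps16 by -0.28 ± 0.16 (adjusted p = 0.212). Of the 43 members that did not pass, 31 had a difference below 0. Mrpl15, which differed by -0.10 ± 0.11, and Mrps11, by -0.19 ± 0.08, had small standard errors. A p that misses the threshold does not show that the level was the same.

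Several members had further probe sets, and these did not always go with the one that was used. The members held 156 probe sets tied to 1 gene, and 42 had more than 1. Of the 80 further probe sets, 12 were lower and 4 higher in a fit over all probe sets, and 54 of the 80 lay under the median level. The shares of all probe sets that passed in that fit are not given here, so these counts have no background. Among the 13 lower members with further probe sets, 5 had another that was also lower: Mrpl19, Mrpl3, Mrpl50, Mrps23 and Mrps5. For Mrpl50 the second probe set differed by -0.79 ± 0.16 (adjusted p = 0.00329). For Mrps23 a further probe set differed by -1.22 ± 0.17 (adjusted p = 0.000246), and for Mrpl19 one differed by -1.24 ± 0.15 (adjusted p = 0.000109). Another 17 members that passed had only 1 probe set. Mrpl11 and Mrps25 did not pass on the probe set used, but each had a further probe set that was lower. These differed by -0.97 ± 0.12 (adjusted p = 0.000115) for Mrpl11 and -0.53 ± 0.14 (adjusted p = 0.014) for Mrps25.

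In 7 members a further probe set passed in the direction opposite to the one used. The share of all genes with such a probe set is not given here. The clearest case was Mrpl44. The probe set used was higher by 0.58 and a further one by 0.43 ± 0.16 (adjusted p = 0.0636), while 2 others differed by -0.91 ± 0.20 and -0.81 ± 0.15 (adjusted p = 0.00432 and 0.00204). The direction of Mrpl44 thus depended on the probe set, and the mean over its 4 probe sets differed by -0.18 (adjusted p = 0.301). Mrps21 was lower on the probe set used and higher by 0.29 ± 0.08 (adjusted p = 0.0253) on the other, whose mean of 3.25 was near the low end of the scale.

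The other 5 did not pass on the probe set used. Mrpl39 differed there by 0.19 ± 0.16 and by -0.90 ± 0.24 on its second probe set (adjusted p = 0.0154). Mrps24 differed by less than 0.01 there and by -0.78 ± 0.17 on its second (adjusted p = 0.00433). Mrpl48 had one probe set at -0.70 ± 0.14 (adjusted p = 0.00291) and one higher by 0.56 ± 0.16 (adjusted p = 0.0225), beside 0.28 ± 0.18 on the one used. Mrpl13 had a probe set higher by 0.63 ± 0.17 (adjusted p = 0.018), with a mean of 3.41, and Mrpl34 one higher by 0.41 ± 0.09 (adjusted p = 0.00407), with a mean of 3.98. Neither Mrpl52 nor Mrpl28 had a second probe set that passed. The transcripts that each probe set reads were not compared here.

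**Figure D3:**
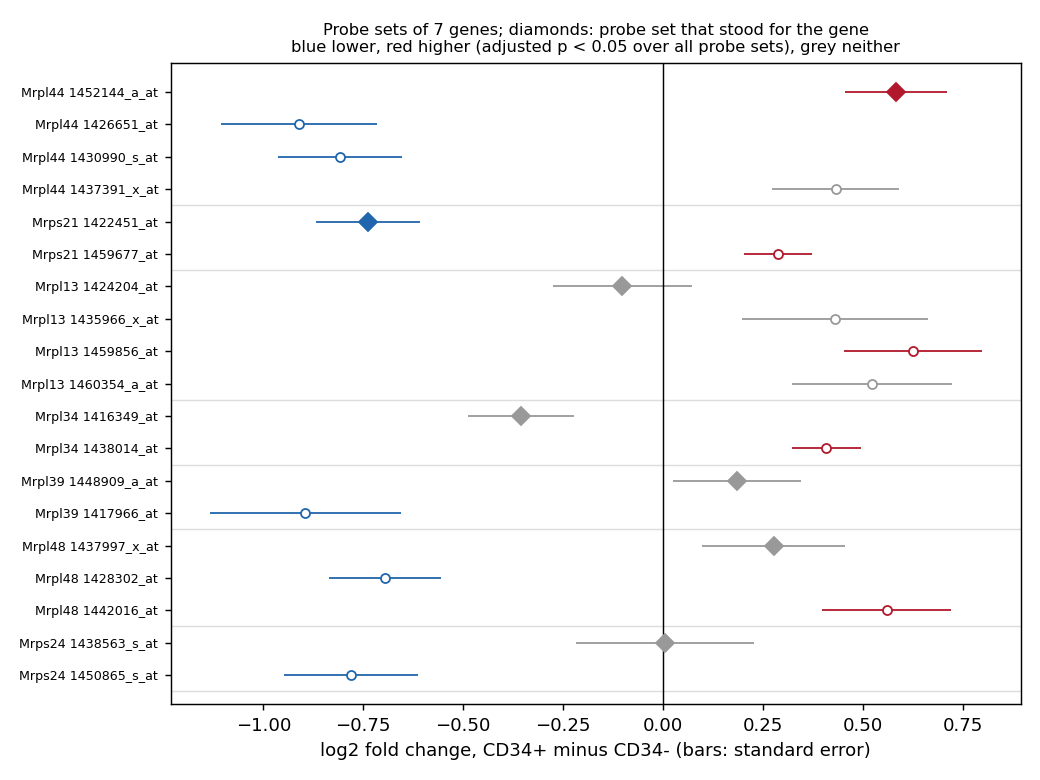
Log2 fold change (x axis, CD34+ minus CD34-, with standard error) of every single-gene probe set (y axis) of the 7 members with probe sets in opposite directions. Diamonds mark the probe set used for the gene; blue is lower, red higher and grey not past an adjusted p of 0.05 over all probe sets, and Mrpl44 has 1 red and 2 blue probe sets.

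The CD34+ arrays were not alike. On CD34+ arrays 1, 3 and 5 the median deviation of the members from their own means over the 12 arrays was -0.26, -0.53 and -0.44. On CD34+ arrays 2, 4 and 6 the median deviation was 0.05, 0.20 and -0.04, and on the CD34- arrays it was 0.05 to 0.36. Arrays 1, 3 and 5 had 66, 71 and 72 of the 76 members below their mean, and arrays 2, 4 and 6 had 31, 20 and 42. Within the CD34+ fraction, array 4 held the highest value of 43 members and array 3 the lowest of 39. Genes at or above the median level did the same: their median deviation was -0.23, -0.53 and -0.31 on arrays 1, 3 and 5, and 0.07 to 0.09 on arrays 2, 4 and 6. The labels name no batch, and why these arrays stood apart was not tested.

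**Figure D4:**
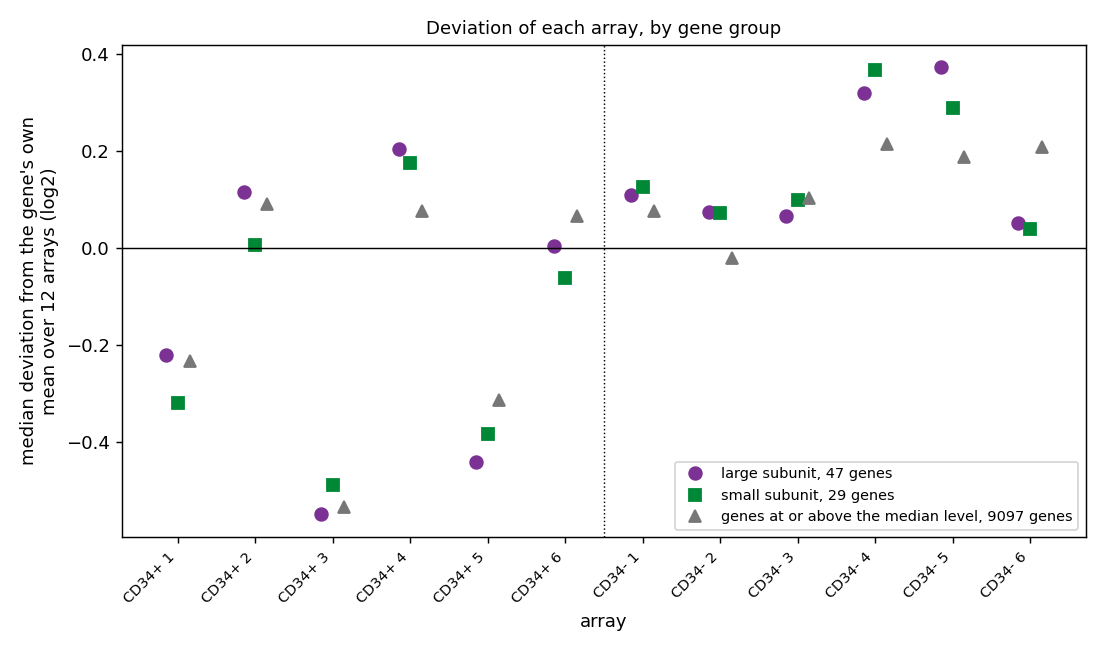
Median deviation from each gene's own mean over 12 arrays (y axis, log2) on each array (x axis) for large subunit genes, small subunit genes and the 9097 genes at or above the median level. CD34+ arrays 1, 3 and 5 lie below 0 for every group, down to -0.55, and the subunits stay within 0.11 of each other on every array.

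The spread between arrays differed in the same way. The median standard deviation of a member was 0.37 over the CD34+ and 0.21 over the CD34- arrays, and 64 of 76 members (84.2%) varied more in CD34+ cells. The same share, 84.2%, held for all genes. The large subunit had a median standard deviation of 0.41 and the small of 0.32 in CD34+ arrays, against 0.22 and 0.19 in CD34- arrays.

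Without CD34+ arrays 1, 3 and 5 fewer members were lower. The counts were then 14 lower and 9 higher, where 10.4% of all genes were lower and 8.81% higher. Of genes at or above the median level 17.3% were lower and 12.4% higher, against 18.4% and 11.8% of members. Of the 30 lower members 14 remained, and of the 3 higher all remained, while 6 others became higher; none passed in the opposite direction. Leaving these arrays out raised the difference in 71 of 76 members, and 45 rather than 61 were below 0. The medians were -0.08 for the large and -0.21 for the small subunit, and -0.05 for genes at or above the median level. By subunit, 8 large and 6 small genes were lower, and 7 large and 2 small were higher.

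**Figure D5:**
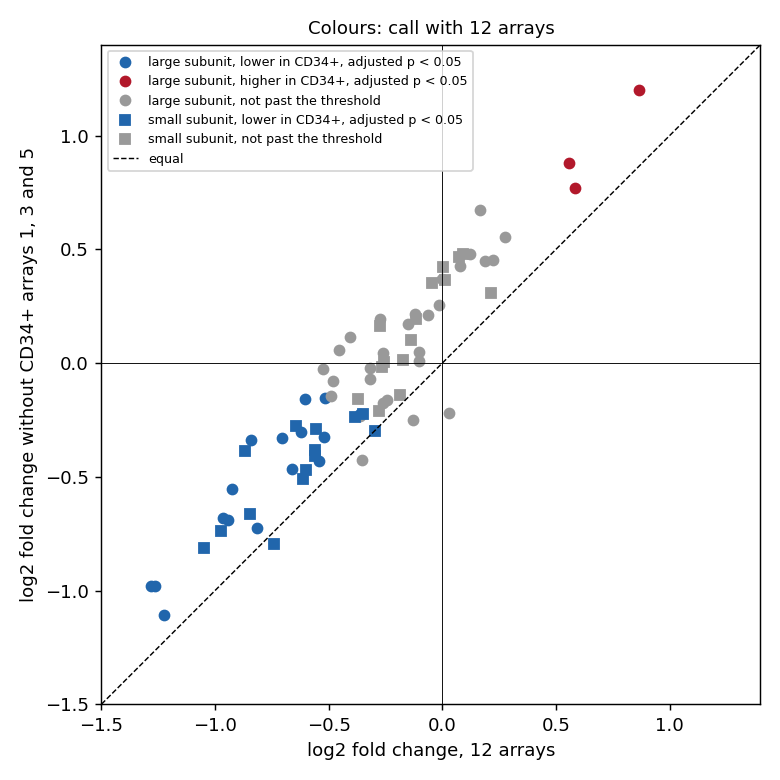
Log2 fold change of each member with 12 arrays (x axis) and without CD34+ arrays 1, 3 and 5 (y axis); circles are large and squares small subunit genes, colours give the result with 12 arrays, and the dashed line marks equal values. Of 76 members 71 lie above the line, and Mrpl4, Mrpl50, Mrpl18 and Mrps18b stay near -1.

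A smaller group kept its direction and passed under nearly every treatment of the data. Of the 30 lower members, 11 passed with each single array left out, without CD34+ arrays 1, 3 and 5, with the array number as a block, with means of numbered pairs, after median centring, after quantile normalization and with a trended, robust variance. These were Mrpl4, Mrpl50, Mrpl18, Mrpl37, Mrpl42, Mrpl2, Mrpl9, Mrps18b, Mrps14, Mrps22 and Mrps23. Among these, Mrpl9, Mrpl42 and Mrps18b also passed on the even-numbered arrays alone (adjusted p = 0.0275, 0.0286 and 0.0314). Mrpl42 did not pass with the mean over its probe sets. Of the 3 higher members, Mrpl52 and Mrpl44 passed in those same treatments, but neither passed with the mean over its probe sets. How many of all genes passed in every one of these treatments was not counted, so the 11 have no background share. Over all genes the lower count fell from 3296 to 1900 without CD34+ arrays 1, 3 and 5 and to 2499 after quantile normalization. Each mean of a numbered pair joins an odd and an even CD34+ array, and the labels do not say that these share an RNA. With such means 35 members were lower, and over all genes the lower count rose from 3296 to 3510. Why the counts rose was not tested.

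Genes that act beside the ribosome were counted in the same fit, where 18.1% of all genes and 31.1% of those at or above the median level were lower. No list was tested against these shares. The import genes had 42.9% lower and the subunit proteins under other names 0 of 4, and the other mitochondrial lists had 7.69% to 30.8%, which is below the latter share. Proteins of the small and large subunit under other names, Dap3, Ptcd3, Chchd1 and Gadd45gip1, did not pass, with differences from -0.44 to -0.05. Of 12 mitochondrial translation factors 3 were lower: Mtif2, the initiation factor, with a difference of -0.68 ± 0.21 (adjusted p = 0.0256), Gfm2, which splits the ribosome for reuse, with -0.62 ± 0.19 (adjusted p = 0.0255), and Tufm, the elongation factor that brings the charged tRNA, with -0.35 ± 0.09 (adjusted p = 0.0142). Tufm differed by 0.03 in the mean over its probe sets and did not pass after quantile normalization (-0.04). Of 19 mitochondrial aminoacyl-tRNA synthetases, which charge the tRNAs, 5 were lower, led by Fars2 at -0.89 ± 0.10 (adjusted p = 2.8e-05), Hars2 and Tars2.

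Of 23 genes of mitoribosome assembly and rRNA modification, 4 were lower and 2 higher. Noa1, a GTPase needed for the small subunit, differed by -0.76 ± 0.23 (adjusted p = 0.0241). The rRNA methyltransferases Mrm3 and Mrm2 differed by -0.58 ± 0.15 and -0.55 ± 0.13 (adjusted p = 0.0138 and 0.00776). After quantile normalization the balance was 2 lower and 5 higher. Of 13 genes of mitochondrial DNA and transcription 4 were lower, among them Tfam, which packages the mitochondrial genome, with -0.63 ± 0.19 (adjusted p = 0.0245), Tefm and Lonp1. Without CD34+ arrays 1, 3 and 5, Mtif2, Gfm2, Hars2, Tars2, Noa1, Mrm2, Lonp1, Tefm and Tfam no longer passed (adjusted p from 0.0612 for Mrm2 to 0.314 for Noa1), and Mrm3 did not after quantile normalization (adjusted p = 0.116). Of 13 nuclear regulators 1 was lower, Ppara with -1.59 ± 0.29 (adjusted p = 0.0014), and 1 higher, Ppargc1b with 0.30 ± 0.09 (adjusted p = 0.021).

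The import machinery, which carries these proteins into the organelle, had 9 of 21 genes lower, 0 higher and a median of -0.47. Timm8a1, a chaperone of the intermembrane space, differed by -0.92 ± 0.17 (adjusted p = 0.00148), the outer membrane pore Tomm40 by -0.70 ± 0.13 (adjusted p = 0.00158) and the matrix chaperonin Hspd1 by -0.64 ± 0.13 (adjusted p = 0.00217). The ribosome's products join the complexes of the respiratory chain and ATP synthase. Complex I had 4 of 34 lower and 0 higher (median -0.05), complexes II to IV had 6 of 23 lower and 0 higher (median -0.21), and ATP synthase had 3 of 15 lower and 0 higher (median -0.29). Among these, Ndufs3 differed by -1.19 ± 0.16, Uqcrh by -1.94 ± 0.20 and Atp5b by -1.31 ± 0.20 (adjusted p = 0.00012, 1.9e-05 and 0.000407). Complex I turned to 3 lower and 8 higher after quantile normalization.

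The ribosomal proteins of the cytosol gave 7 lower and 3 higher of 49 genes, with a median of -0.15. Rplp0 differed by -0.97 ± 0.22 (adjusted p = 0.00503) and Rps19 by -0.96 ± 0.19 (adjusted p = 0.00197), and Rpl27a was higher by 0.91 ± 0.31 (adjusted p = 0.0423). Both Rplp0 and Rpl27a lost their call when CD34+ arrays 1, 3 and 5 were left out. In the list of G2/M and mitosis, 19 of 19 measured genes were lower, with a median of -1.41, and 19 remained lower after quantile normalization and without CD34+ arrays 1, 3 and 5. Nusap1 differed by -2.07 ± 0.23 (adjusted p = 3.5e-05) and Top2a by -1.74 ± 0.22 (adjusted p = 9.4e-05). The largest difference of a mitoribosomal gene, that of Mrpl4, was smaller than the median of that list.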

How the data were processed

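The deposited values are on a log2 scale, 1 for each probe set on each array, and the authors made them with RMA, per the submitters' processing notes; its version, and whether the 12 arrays were normalized together, are not given in the sources used here. Control probe sets (64 of 45101) were left out, and GEO's platform annotation tied 34945 of the other 45037 to 1 gene, 932 to several and 9160 to none here. Each of 18193 genes was read from its probe set with the highest mean. Two-sided tests of CD34+ against CD34- arrays used limma's lmFit and eBayes (version 3.58.1, R 4.3.3) without a block, and p-values were adjusted by Benjamini and Hochberg's method over all genes, with a threshold of 0.05; the fit was tested on simulated data. Errors beside fold changes are limma's standard errors, and the number of arrays limits the precision. RMA gives no detection call; the Trpn controls read 2.31 to 2.95 and member values 4.18 to 10.8. Text names, per subunit, up to 6 largest falls and 6 largest rises that passed, the 2 largest that did not, members with a probe set passing the opposite way, and up to 3 genes (2 for cell types) per other list; further names were chosen after their values were seen. Members, lists and alternatives were chosen with earlier results of these data known. Promoters come from RefSeq. Alternatives were the replicate block, means of numbered pairs, median centring, quantile normalization, a level filter, the mean over probe sets, trended robust variance, and leaving out arrays. Listed genes without a probe set of their own were not analysed here.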

Additional observations from a re-analysis of the deposited data

Results flagged for a closer look

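In 2 of the 52 groups of 6 arrays examined, 1 array stood far from the others, where chance gives about 1 in 20. Mrpl50 read 7.15 on CD34- array 6, with the next array at 6.63, a gap of 0.66 of the range. Mrpl18 read 7.10 on CD34+ array 4, with the next at 6.30, a gap of 0.657 of the range. Both genes were lower in CD34+ cells with and without those arrays.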

How the results depend on the processing

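With the deposited 12 arrays 30 members were lower and 3 higher. The lower count moved to 18 after quantile normalization, 14 without CD34+ arrays 1, 3 and 5, and 3 on the even-numbered arrays alone. On the even-numbered arrays that was 3.95% of members, against 3.99% of all genes and 6.40% of genes at or above the median level. The higher count moved to 11 after quantile normalization, 9 without CD34+ arrays 1, 3 and 5, and 1 with the mean over all probe sets. That gene was Mrpl58 (0.19, adjusted p = 0.0416), and none of Mrpl52, Mrpl44 and Mrpl28 passed there. In the large subunit 8 were lower and 7 higher without CD34+ arrays 1, 3 and 5, 2 were lower on even-numbered arrays, 8 were higher after quantile normalization and 1 with the probe set mean. In the small subunit 6 were lower after quantile normalization and 6 without CD34+ arrays 1, 3 and 5, 1 on even-numbered arrays, while 3 and 2 were higher in the first 2 of these. Leaving out 1 array gave 9 (without CD34- array 4) to 15 lower small subunit genes, and 2627 to 3889 lower genes among all genes. Alternatives that leave arrays out fit fewer samples; otherwise the cause was not tested. Median centring moved the median of all genes by -0.10, and the members stayed 0.36 below it. With the replicate block the counts were 28 lower and 3 higher, and 0 of the 24 named members changed their side of the threshold. Array numbers correlated from -0.27 to 0.50 between the fractions and matched best for 3 of 6. Not every number correlated above 0.1, so the numbers were not taken as pairs, though a shared isolation behind some of them was not tested. With the mean over probe sets Mrpl44 turned to -0.18 and Tufm to 0.026 (adjusted p = 0.301 and 0.785); no other of the 60 named genes that passed turned direction in any alternative. Of the 9 named that did not pass, Mrpl13, Mrpl34, Mrpl39 and Mrps24 changed sign there, Mrps16 and Mrpl13 after quantile normalization, Mrps24 after median centring, Mrpl13 also without CD34+ arrays 1, 3 and 5 and on even-numbered arrays, and Mrps24 without any 1 of 6 arrays.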
